A study of Mus musculus with 24 samples.

Results

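A pair of mutant lines of mouse embryonic fibroblasts (MEFs) was compared by RNA sequencing: the libraries labelled *Eset1*/*Eset2*/*G9a*/*Glp* KO, called *E1E2 G9Gl* in the study, and those labelled *Eset1*/*Eset2*/*Suv39h1*/*Suv39h2*/*G9a*/*Glp* KO, called *6KO1*. They were chosen by their labels and are 6 of the 24 libraries of the series, 3 biological replicates per line. By their labels the lines differ in *Suv39h1* and *Suv39h2* alone, so the comparison asks what changes where these 2 genes are mutated on top of the other 4. They share a floxed *Eset1* allele, which a Cre recombinase removes after 1 µM 4-hydroxytamoxifen in the medium, and CRISPR mutations of *Eset2*, *G9a* and *Glp*. However, each line is 1 selected clone and the clones have different histories: *6KO1* descends from the clone that gave the *E1 S1S2* libraries, and *E1E2 G9Gl* from another, *Eset2*-mutant clone. Every difference is therefore a difference between 2 clones, in which the *Suv39h* mutations and the clone history cannot be told apart. Values of 4 more lines are given beside them. WT is the parental floxed line without 4-hydroxytamoxifen, *E1* is the same line after it, with *Eset1* deleted, *E1 S1S2* lacks *Eset1*, *Suv39h1* and *Suv39h2*, and *6KO2* is a clone with all 6 mutations that was derived from *E1E2 G9Gl* itself. The figures and the tests over all libraries also hold *E2* and *E1E2*. *E2* is the floxed, *Eset2*-mutant clone from which *E1E2 G9Gl* descends, without 4-hydroxytamoxifen, and *E1E2* is the same clone after it, with *Eset1* deleted.

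The 6 genes encode the SET-domain enzymes that methylate lysine 9 of histone H3 (H3K9) in mouse cells. Eset1 (Setdb1) is brought to endogenous retroviruses by zinc finger proteins, G9a and Glp act as a pair and place mainly dimethylation in euchromatin, and the Suv39h enzymes place trimethylation on pericentromeric heterochromatin, which is built of satellite repeats. Endogenous retroviruses (ERVs) are relics of retroviral insertions and fall into the ERV1, ERVK and ERVL families, and L1 elements are autonomous retrotransposons without long terminal repeats (LTRs).

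Library totals were 24736829 to 29777651 counts in *E1E2 G9Gl* and 30046687 to 33800828 in *6KO1*, and repeats took 20.8 to 21.2% of them in *E1E2 G9Gl* and 21.5 to 21.9% in *6KO1*. The libraries of a line differed from each other by more than counting error, with a chi-square per gene of 1.78 to 7.14 where counting error alone gives about 1. In *6KO1* replicate 1 stood apart, with 7.14 and 6.36 against replicates 2 and 3, which gave 1.78 against each other. WT replicate 2 stood apart from the other WT libraries, and without it 2119 genes in place of 1997 and 1874 in place of 1807 were called in the comparison of the mutant lines. In each *6KO1* library 25371 to 25811 genes had at least 1 count, against 22970 to 23303 in *E1E2 G9Gl*. After all libraries were thinned to 19541909 gene counts, 24755 to 24890 genes were detected in *6KO1*, 22872 to 22970 in *E1E2 G9Gl*, 23675 to 23774 in *6KO2* and 20540 to 20739 in WT, so the order was the same at equal depth. Levels below are normalised counts, which are counts scaled by TMM factors of the genes to a library of average size. They are not divided by gene length, so they compare lines and not genes. Fold changes are *6KO1* relative to *E1E2 G9Gl* on the log2 scale, and a positive value means a higher level in *6KO1*. A gene or element was called where the fold change was at least 2-fold (log2 of 1) and the adjusted p at most 0.01 (edgeR quasi-likelihood test over all 24 libraries, Benjamini-Hochberg).

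The targeted genes were read first. *Suv39h1*, on chromosome X from 8061171 to 8074760 of GRCm38, was lower in *6KO1*, where its libraries held 877, 802 and 836 normalised counts, than in *E1E2 G9Gl*, where they held 2063, 1958 and 2023 (log2 fold change -1.27, SE 0.05, adjusted p = 2.4e-16). *Suv39h2*, on chromosome 2 from 3455815 to 3475031, went the other way. Its libraries held 1098, 1092 and 1108 in *6KO1* and 370.0, 357 and 355 in *E1E2 G9Gl* (log2 fold change 1.61, SE 0.08, adjusted p = 3.1e-14), and WT held 999.5 ± 85.6 (SD, n = 3, as for every value with ± that follows). The *Suv39h2* RNA thus went against the label. A small CRISPR mutation need not lower the RNA of a gene, and 767 exonic bases of *Suv39h1* overlap *Gm14820* and 357 exonic bases of *Suv39h2* overlap *Dclre1c*, in both cases on the other strand, so this is a weak check and the lines are named by their labels. The 4 genes that carry mutations in both lines were not called. Their fold changes were 0.62 for *Setdb1* (*Eset1*), 0.65 for *Setdb2* (*Eset2*), 0.36 for *Ehmt2* (*G9a*) and 0.34 for *Ehmt1* (*Glp*), and in each of them both lines lay below WT.

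Of 18565 genes tested, 1997 (10.8%) were higher and 1807 (9.73%) lower in *6KO1*. The median fold change of all genes was 0.03. Of the genes called, 1988 of the 1997 higher ones and 1807 of the 1807 lower ones had libraries that did not overlap between the lines, but this was true of 71.4% of all genes tested. Many of the genes that differed were near silent in WT. The WT level was below 10 in 48.0% of the higher and 42.2% of the lower genes, against 16.9% of all genes tested. However, genes low in WT could pass the filter on low counts through a mutant line in which they are high. The difference in shares is therefore not a result about these genes. The higher genes had a median level of 62.7 in *6KO1*, 11.3 in *E1E2 G9Gl* and 11.7 in WT, and the lower genes one of 18.0 in *6KO1*, 141 in *E1E2 G9Gl* and 20.6 in WT. The medians of both sets thus lay above WT in 1 of the lines and near WT in the other, which did not hold for every gene. For 211 of the higher genes all *E1E2 G9Gl* libraries were at 0, and for 71 of the lower genes all *6KO1* libraries were at 0. In bulk RNA, fewer cells that express a gene and less RNA per cell cannot be told apart.

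**Figure D1:**
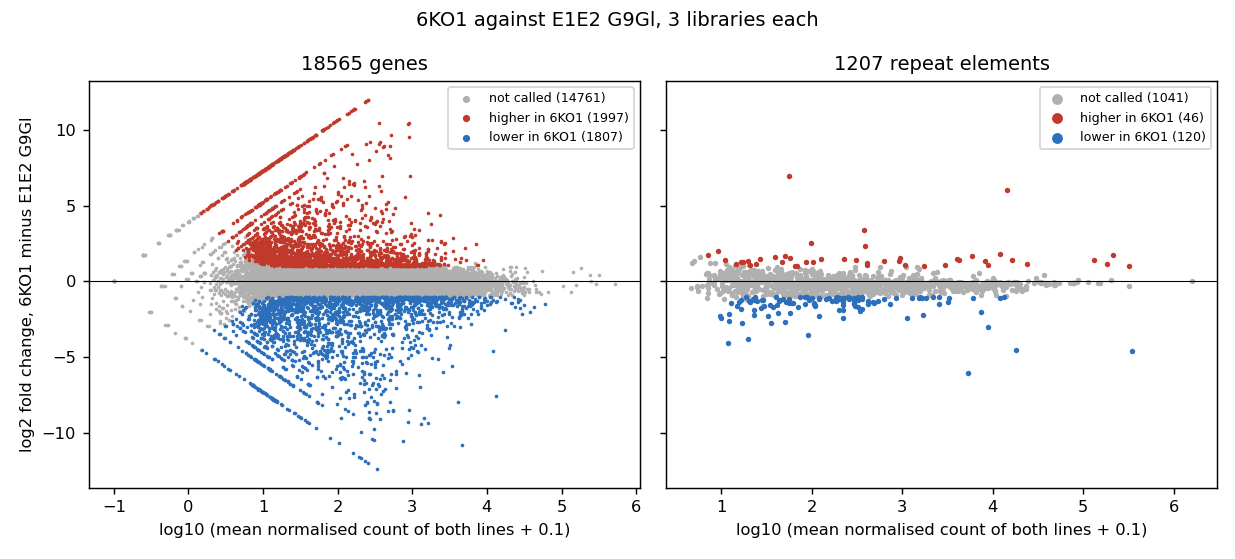
Log2 fold change of *6KO1* relative to *E1E2 G9Gl* against the log10 mean normalised count of both lines, for 18565 genes (left) and 1207 repeat elements (right). Each point is 1 gene or element, red where called higher in *6KO1*, blue where called lower. Calls among genes lie on both sides in like numbers, and those among repeats lie mostly below 0.

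The largest falls in *6KO1* were mostly in genes that *E1E2 G9Gl* expressed and that had fewer than 10 normalised counts in WT. *Aldh1a1*, a retinaldehyde dehydrogenase of retinoic acid synthesis on chromosome 19 from 20492715 to 20643465, held 9363, 9324 and 9372 normalised counts in *E1E2 G9Gl* and 9.67, 2.61 and 2.93 in *6KO1* (log2 fold change -10.80, SE 0.16, adjusted p = 2.8e-22), beside 2.01 ± 1.11 in WT. *6KO2*, which descends from *E1E2 G9Gl*, held 197 ± 15.3 and so lay between them. *Tmem45a* gave no count in the 3 *6KO1* libraries and 694, 627 and 703 in *E1E2 G9Gl*, at least 743-fold lower when 3 counts over the line are taken as the floor. *Ndn*, the imprinted gene of necdin, was also at 0 in *6KO1* and held 491, 494 and 535 in *E1E2 G9Gl*, at least 557-fold lower, while *6KO2* held 661 ± 10.2 and WT 0.639 ± 0.555. The same floor gave at least 452-fold for *Gdf6*, a secreted factor of the bone morphogenetic protein family, and at least 423-fold for the collectin *Colec10*. *Gpm6a*, a membrane glycoprotein of neurons, had 3 counts in all *6KO1* libraries together and 1505, 1544 and 1499.9 normalised counts in *E1E2 G9Gl*, which is 1673-fold (95% counting interval 572 to 8114). *Vat1l* held 2647, 2579.7 and 2567 in *E1E2 G9Gl* and 3.52, 2.61 and 4.89 in *6KO1*, and here *6KO2* was as high as its parent line at 2771 ± 269. The olfactory receptor genes *Olfr872* and *Olfr39*, both on chromosome 9, were at 0 in the 3 *6KO1* libraries and in WT, with 207 ± 18.9 and 101 ± 6.65 in *E1E2 G9Gl*. *Cobl*, *Gpx7*, *Soga3* and *Bmyc* had levels of 574, 609, 323 and 159.9 in *E1E2 G9Gl* and at most 1 count in all *6KO1* libraries together. In contrast, *Jph1* and *Thy1* were expressed in WT (55.6 ± 2.61 and 199 ± 10.7) and fell to 0.583 ± 0.505 and 0.293 ± 0.508 in *6KO1*. *Thy1*, a fibroblast surface antigen, was also low in *E1 S1S2*, the line from which *6KO1* descends (0.861 ± 0.902), and in *6KO2* (1.76 ± 2.14).

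Zinc finger genes of 1 region were among the largest rises. Of the 15 genes with the largest rise, *Zfp980*, *Rex2*, *Zfp987*, *Zfp978* and *Zfp985* lie between 145670685 and 147585198 on chromosome 4 of GRCm38. This stretch of 1915 kb carries a family of Krüppel-type zinc finger genes that arose by local duplication, and factors of this type recruit Eset1 to retroviral sequences. All 14 of its zinc finger genes that were tested were higher in *6KO1*, by at least 1.20 and with a median of 8.94 on the log2 scale, and of its 39 tested genes of any kind 25 were higher and 0 lower. *Zfp980* was at 0 in every *E1E2 G9Gl* and WT library and held 489.7, 532 and 519 in *6KO1*, at least 439-fold higher. *Rex2* went from 0 to 472, 534 and 513, at least 433-fold higher. *Zfp985* had 3 counts in all *E1E2 G9Gl* libraries together and 1652, 1741 and 1787 normalised counts in *6KO1*, a ratio of 1474 (95% counting interval 504 to 7149). *Zfp978*, also with 3 counts in *E1E2 G9Gl*, held 1829.9 ± 107 in *6KO1*, a ratio of 1563 (interval 535 to 7582). No library of one line reached the other in these genes. The genes that WT expressed rose less: *Zfp992* went from 438 ± 18.9 to 1997 ± 93.1 with 672 ± 101 in WT, and *Zfp991* from 95.9 ± 22.1 to 222 ± 17.4 with 114 ± 35.8 in WT. The genes were also high in *6KO2*, with means of 55.6 to 1516, and 6 of the 14 were higher in *E1 S1S2* than in *E1*, where 4.31% of all genes were. Outside the region, 29 of 325 tested *Zfp* genes were higher (8.92%) and 17 lower (5.23%). The region was singled out after its values were seen, and its ends were set by genes with the largest rises. Genes near 0 in *E1E2 G9Gl* and WT, such as *Zfp980*, could pass the filter on low counts through lines in which they are high. The counts of 14 of 14 and 25 of 39 are therefore not a result about the region.

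The genes of the region belong to a duplicated family, and the authors' counting could split reads between them. Their promoters were compared, and their exons were not. Of the 14 genes, 9 have a promoter of 300 bases in the RefSeq-based table (GRCm38.p6), and 6 of these share a run of 28 identical bases. The windows around it are given with the shared run in capitals.
*Zfp980*, chr4:145670588-145670705, plus strand: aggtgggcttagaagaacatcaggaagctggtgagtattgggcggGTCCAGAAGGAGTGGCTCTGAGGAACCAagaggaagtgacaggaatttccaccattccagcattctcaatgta
*Zfp987*, chr4:146097193-146097310, plus strand: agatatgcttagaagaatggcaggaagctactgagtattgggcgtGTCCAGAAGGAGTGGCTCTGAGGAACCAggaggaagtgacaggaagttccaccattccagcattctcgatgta
*Zfp600*, chr4:146156724-146156841, plus strand: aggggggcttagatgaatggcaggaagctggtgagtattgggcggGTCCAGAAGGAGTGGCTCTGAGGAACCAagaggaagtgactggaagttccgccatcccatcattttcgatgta
*Rex2*, chr4:147021747-147021864, plus strand: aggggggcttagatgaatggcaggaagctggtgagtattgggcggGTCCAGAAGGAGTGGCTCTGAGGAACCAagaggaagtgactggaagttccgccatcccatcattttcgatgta
*Zfp988*, chr4:147305522-147305639, plus strand: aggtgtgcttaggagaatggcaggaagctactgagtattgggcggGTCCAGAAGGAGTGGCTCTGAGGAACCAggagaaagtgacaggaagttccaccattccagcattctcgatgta
*Zfp985*, chr4:147553173-147553290, plus strand: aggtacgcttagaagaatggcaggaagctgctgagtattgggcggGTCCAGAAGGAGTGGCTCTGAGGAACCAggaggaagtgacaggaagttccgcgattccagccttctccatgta
Aligned over 264 to 300 columns, the whole promoters of these 6 genes were 84.3 to 99.7% identical in 15 pairs. Of 32851 promoters in the table, 8 (0.024%) held the run of 28 bases, all 8 on chromosome 4. These 6 genes were picked for sharing the run. Of the rest, *Zfp981* was 82.1% identical to *Rex2* over 273 columns, while *Zfp982* and *Zfp993* aligned with *Rex2* over 0 and 6 columns. Since RNA reads come from exons, how far reads were shared between copies was not measured, and the level of a single copy is uncertain.

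**Figure D2:**
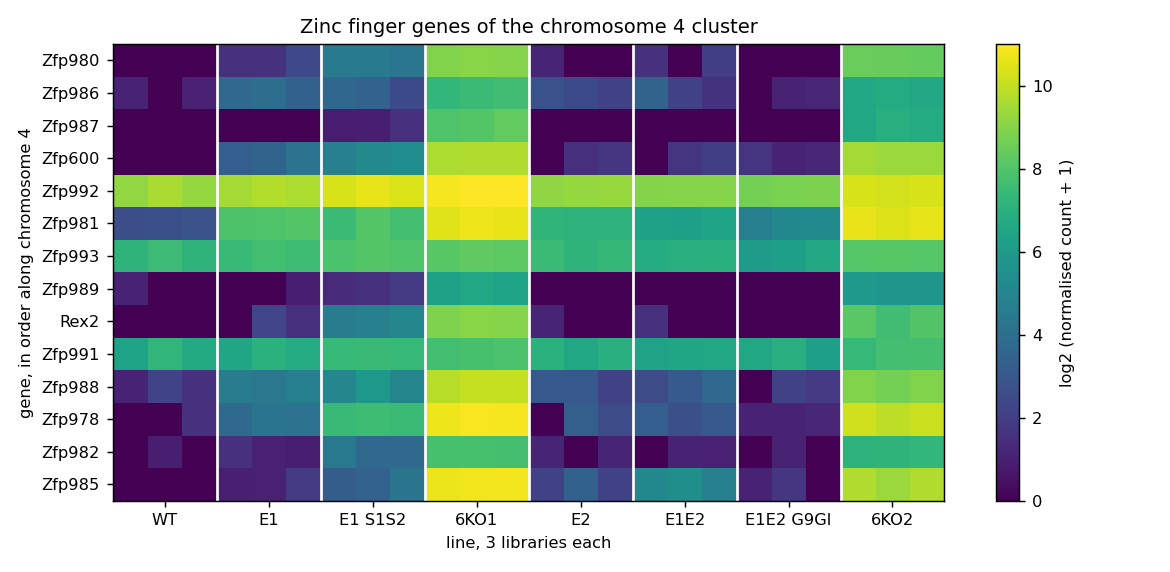
Log2 of the normalised count + 1 of the 14 tested zinc finger genes of the chromosome 4 region, in their order along the chromosome, in the 24 libraries of the 8 lines. The *6KO1* and *6KO2* columns are bright for all genes, and most rows are dark in WT and *E1E2 G9Gl*.

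Other genes rose from nothing as well. *Csprs*, on an unplaced scaffold, was at 0 in *E1E2 G9Gl* and WT and held 475, 453 and 526 in *6KO1*, at least 413-fold higher. *Abca13*, an ABC transporter gene, gave at least 279-fold with 342, 292 and 347 in *6KO1*. Some genes were silent in *E1E2 G9Gl* but expressed in WT. *Cdyl2*, a chromodomain protein that binds methylated H3K9, had 363 ± 48.4 in WT, 1 count in all *E1E2 G9Gl* libraries and 785, 689 and 689 normalised counts in *6KO1*, a ratio of 1851 (95% counting interval 332 to 73149). The neighbours *Kcnab2* and *Nphp4* on chromosome 4 gave 0 in *E1E2 G9Gl* and 206 ± 19.2 and 199 ± 12.5 in *6KO1*, with 22.6 ± 10.8 and 85.8 ± 12.8 in WT. *Mgmt*, which repairs alkylated guanine, followed the same pattern, with 0 in *E1E2 G9Gl*, 129 ± 5.47 in *6KO1* and 40.9 ± 19.2 in WT. For these genes both WT and *6KO1* lay above *E1E2 G9Gl*. *Gas7* was of this kind too, while *Cntn5*, *Fam19a5* and *Dpyd* had fewer than 1 normalised count in WT, 0 in *E1E2 G9Gl* and 127, 159 and 103 in *6KO1*.

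Called genes lay beside each other elsewhere too. There were 11 runs of at least 6 neighbouring tested genes that were all higher and 15 runs that were all lower. On chromosome 1, 13 neighbours that include *Sp110* and *Sp140*, nuclear body proteins of immune cells, were higher with a median of 7.47. A run of 8 genes on chromosome 9 that holds *Fbxw15*, *Fbxw16*, *Fbxw18*, *Fbxw19*, *Fbxw24*, *Fbxw25* and *Fbxw26*, F-box genes of a local family, was lower with a median of -6.32. These runs were found after the values were seen, and several consist mostly of predicted gene models.

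Among repeats, 46 of 1207 tested elements were higher (3.81%) and 120 lower (9.94%) in *6KO1*. The median of all elements was -0.21. This split depends on the scaling: with factors from the repeats alone the median was 0.01, and 63 elements were higher and 68 lower. Repeat-only factors moved the elements upward, and several small negative fold changes turned positive with them. Repeat counts are sums over the genomic copies of an element, among which the authors' counting tool shares ambiguous reads. Of 58 family totals, 1 was called higher (1.72%) and 4 lower (6.9%).

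The major satellite, annotated as GSAT_MM and the building block of pericentromeric heterochromatin, was far higher in *6KO1*. It held 461, 397 and 403 normalised counts in *E1E2 G9Gl* and 29821, 25241 and 29009 in *6KO1*, a 66.4-fold difference (log2 fold change 6.06, SE 0.14, adjusted p = 1.2e-35). Each *6KO1* library lay above each *E1E2 G9Gl* library, while WT held 269 ± 15.9 and *E1* 433 ± 38.1. The other lines with *Suv39h* mutations lay above WT as well, with 4512 ± 335 in *E1 S1S2* and 11073 ± 958 in *6KO2*. Between *E1 S1S2* and *E1*, which share no library with the main comparison, it differed by 3.38 (SE 0.12, adjusted p = 5.6e-27). MMSAT4, another satellite annotation, held 5091, 5333 and 5279 in *E1E2 G9Gl* and 17638, 19096 and 19556 in *6KO1* (log2 fold change 1.84, SE 0.13, adjusted p = 8.5e-17), and 4548 ± 1203 in WT. In *E1 S1S2* it was at 5532 ± 419, which was not called against *E1* (log2 fold change 0.31). The 3 remaining satellite elements tested were not called: SYNREP_MM had a fold change of -0.96 and passed the threshold when some single libraries were left out, IMPB_01 had one of -0.37 and ZP3AR one of 0.08. As a class, satellites were 3.76-fold (SD 0.175) higher in *6KO1*, with totals of 14390.3, 14159 and 14366 in *E1E2 G9Gl* and 55161, 50991 and 55348 in *6KO1*, which do not overlap. Without GSAT_MM the fitted log2 fold change of the satellite total was 0.89 in place of 1.91, which ended its call. The exact permutation test gave p = 0.1, two-sided, which is the smallest p that 3 libraries against 3 allow.

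**Figure D3:**
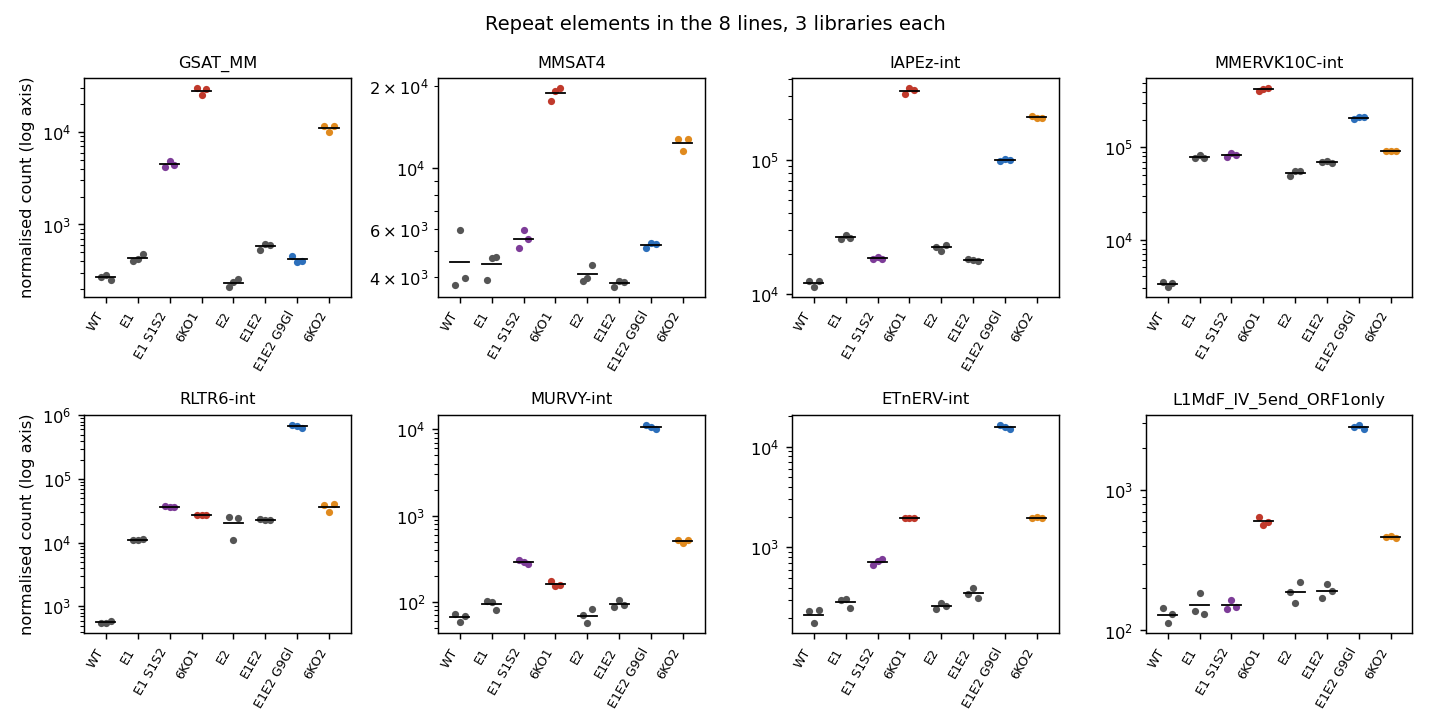
Normalised counts, on log axes, of 8 repeat elements in the 8 lines. Each point is 1 library and the bar is the mean of 3 libraries. GSAT_MM is high in the 3 lines with *Suv39h* mutations (*E1 S1S2*, *6KO1* and *6KO2*), while RLTR6-int, MURVY-int and ETnERV-int peak in *E1E2 G9Gl*.

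ERVs changed in both directions and by element. ERVK elements numbered 22 higher and 35 lower of 270, and ERV1 elements 9 higher and 21 lower of 105, beside 3.81% higher and 9.94% lower of all elements. IAP elements, a young and mobile ERVK group of the mouse, were 8 higher and 2 lower of 25, with a median of 0.62. IAPEz-int, the internal part of the most abundant IAP annotation, held 98663, 101635 and 99363 in *E1E2 G9Gl* and 310700, 340210 and 332786 in *6KO1* (log2 fold change 1.71, SE 0.09, adjusted p = 1.9e-20), beside 12093 ± 640.5 in WT. Its LTRs moved with it: IAPLTR1_Mm differed by 1.42 and IAPLTR1a_Mm by 1.69. IAP1-MM_I-int had a fold change of -0.63 and was not called. MMERVK10C-int, with 204156, 211198 and 213617 in *E1E2 G9Gl* and 408290, 431384 and 435641 in *6KO1*, lay at the threshold (log2 fold change 1.02, SE 0.09, adjusted p = 3.6e-13) and fell just below it with RLE factors, with DESeq2 and when some single libraries were left out. The libraries of the lines did not overlap in either element. Its LTR RLTR10C differed by 1.17. In *6KO2* MMERVK10C-int was below *E1E2 G9Gl*, at 90922 ± 82.7, so the 2 clones with all 6 mutations lay on opposite sides of it.

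The ETn and MusD group, ERVK elements too, went the other way, with 0 higher and 4 lower of 10, beside 3.81% and 9.94% of all elements. ETnERV-int held 16376, 15749.8 and 14934 in *E1E2 G9Gl* and 1964, 1968 and 1969.6 in *6KO1* (log2 fold change -3.00, SE 0.12, adjusted p = 4.7e-26). ETnERV3-int fell by 2.02 on the log2 scale, and ETnERV2-int differed by 0.01. ERVB3_1-I_MM, RLTR44E and RMER16A2 were called lower, with log2 fold changes of -2.44, -2.45 and -2.25. RMER17A-int, RLTR46B and ERVB4_1-I_MM were higher by 2.35, 2.54 and 1.504, from low levels of 126, 28.7 and 64.9.

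The ERV1 family turned on 1 element. RLTR6-int held 704074, 670365 and 631756 normalised counts in the *E1E2 G9Gl* libraries and 27691, 27621 and 27560.3 in *6KO1*, a 24.3-fold difference (log2 fold change -4.60, SE 0.17, adjusted p = 1.1e-26). No other line came near the *E1E2 G9Gl* level: *6KO2* held 36592 ± 5364, *E1 S1S2* 36921 ± 796 and WT 562 ± 30.1. Its LTR RLTR6B_Mm differed by -4.54. MURVY-int, an element named for its copies on the Y chromosome, held 11172, 10641 and 10032 in the former line and 176, 152 and 157 in *6KO1* (log2 fold change -6.03, SE 0.12, adjusted p = 1.1e-37). MMVL30-int was higher in *6KO1*, with 248953, 245188 and 254602 against 111826, 112665 and 116646 (log2 fold change 1.13, SE 0.14, adjusted p = 1.8e-09), and MMERGLN_LTR by 1.49. MuLV-int was not called (log2 fold change -0.09, SE 0.11, adjusted p = 0.528). LTR109A2, at 2 counts in all *E1E2 G9Gl* libraries, held 105, 114 and 117 normalised counts in *6KO1*, a ratio of 143 (95% counting interval 39.4 to 1188). The ERV1 total was -0.66 (SE 0.12, adjusted p = 6.9e-05), but without RLTR6-int it was 0.48 (SE 0.11, adjusted p = 0.0022), so its direction turned. The ERVK total was 0.62 (SE 0.09, adjusted p = 5.1e-06). Neither passed the 2-fold minimum.

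Among L1 elements 4 were higher and 21 lower of 224 in *6KO1*, beside 3.81% and 9.94% of all elements. Their family total differed by -0.40 on the log2 scale (SE 0.11, adjusted p = 0.0054), below the 2-fold minimum. In the young L1Md annotations 13 were lower and 1 higher of 63. L1MdF_IV_5end_ORF1only held 2819, 2910.4 and 2726 in *E1E2 G9Gl* and 647, 567 and 592 in *6KO1* (log2 fold change -2.23, SE 0.11, adjusted p = 4.2e-22), and the abundant L1MdF_III and L1MdF_V had fold changes of -0.49 and -0.47 and were not called. The exception was L1MdA_II_5end_ORF1only, the promoter end of an A-type L1, with 65.8, 56.7 and 73.8 in *E1E2 G9Gl* and 744, 628 and 703 in *6KO1* (log2 fold change 3.40, SE 0.15, adjusted p = 1.6e-23). In both lines the L1 total was above the 291620 ± 54423 of WT, at 781834 ± 17174 in *E1E2 G9Gl* and 593979 ± 36014 in *6KO1*.

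Of MERVL and MT2 elements, ERVL members transcribed in the early embryo, 0 of 8 were called, with log2 fold changes from -0.31 up to -0.0017, of which several turned positive with factors from the repeats alone. Of 37 SINE elements 0 were higher and 1 lower, and of 213 DNA transposons 1 was higher and 16 lower. Of all elements 3.81% were higher and 9.94% lower, so both groups lay below these shares in each direction. Class totals in *6KO1* relative to *E1E2 G9Gl* were 0.959 (SD 0.0227) for LTR elements, 0.760 (SD 0.0491) for LINEs, 0.968 (SD 0.0681) for SINEs and 0.853 (SD 0.0552) for DNA transposons, with two-sided exact permutation p = 0.1, 0.1, 0.4 and 0.1. Without RLTR6-int the LTR ratio was 1.33. The 4 families called lower were small: hAT-Ac held 285 ± 20.2 in *E1E2 G9Gl* and 140.0 ± 11.5 in *6KO1*, and Penelope 38.2 ± 2.13 and 8.06 ± 5.21. The log2 fold changes of tRNA-RTE and Dong-R4 were -1.12 and -1.20.

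**Figure D4:**
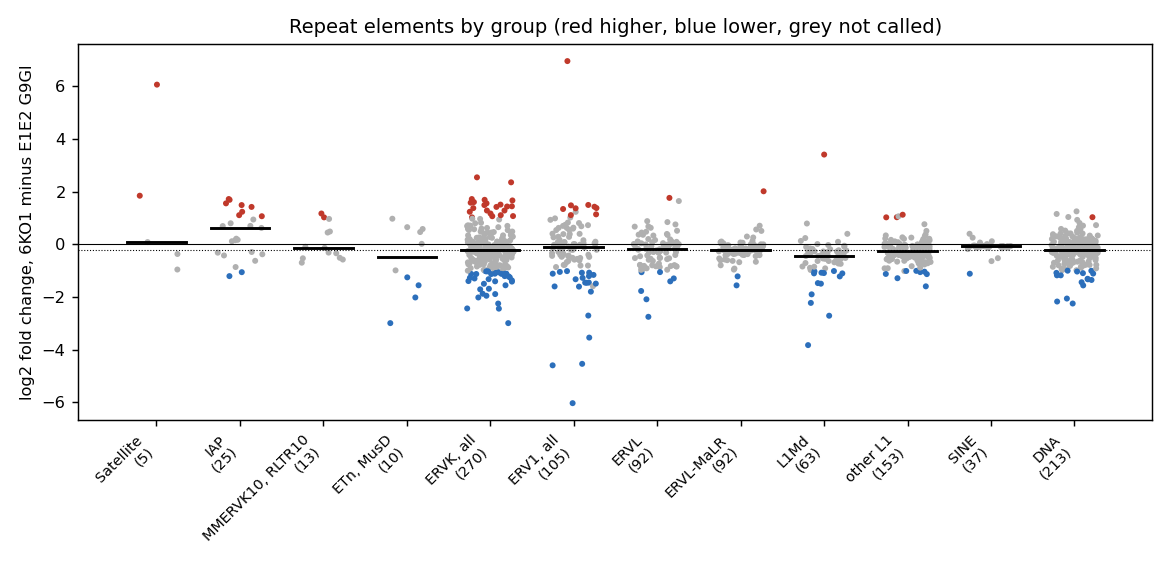
Log2 fold change of *6KO1* relative to *E1E2 G9Gl* for the tested repeat elements of 12 groups, with the number of elements in parentheses. Points are elements, red where called higher and blue where called lower, the bar is the median of the group and the dotted line the median of all elements, at -0.21. IAP elements lie mostly above the dotted line and L1Md elements mostly below it.

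Most target genes of p53, the transcription factor of the DNA damage response, were higher in *6KO1*. Of 30 tested, 18 were higher and 0 lower in *6KO1*, with a median of 1.32, where 10.8% of all genes were called higher. *Cdkn1a*, the cyclin-dependent kinase inhibitor p21, held 243, 234 and 242 in *E1E2 G9Gl* and 3263, 3357 and 3229 in *6KO1* (log2 fold change 3.78, SE 0.07, adjusted p = 2.8e-22). *Trp53inp1*, a cofactor of p53, rose from 216, 205 and 228 to 4318, 4606 and 4677 (log2 fold change 4.39, SE 0.08, adjusted p = 2.8e-22). *Pmaip1* (Noxa), a BH3-only inducer of apoptosis, rose from 20.5, 26.6 and 15.5 to 579, 602 and 645, with 395 ± 81.9 in WT. In these 3 genes the libraries of the lines did not overlap. *Cd80*, a costimulatory ligand, rose from 37.9 ± 8.25 to 551 ± 20.5. *Ccng1*, *Zmat3*, *Btg2* and *Eda2r* were higher by 2.48, 2.70, 2.79 and 2.40, and *Mdm2*, the ubiquitin ligase of p53, by 1.44. *Trp53* itself had a fold change of 0.42 and was not called, and *Bax* one of 0.92. The list's summed level was 71039.7 to 72621 in the *6KO1* libraries, 29769.8 to 30212 in those of *E1E2 G9Gl* and 44422 to 48858 in WT. Against WT, 13 were higher and 0 lower in *6KO1*, where 20.6% of all genes were higher and 10.2% lower. In *E1E2 G9Gl* 2 were higher and 4 lower than in WT, with 16.8% and 8.41% of all genes. Without WT replicate 2 the counts against WT were 12 and 0 in *6KO1* and 2 and 6 in *E1E2 G9Gl*. In *E1 S1S2* against *E1* 8 of the 30 were higher and 0 lower, with 4.31% and 3.75% of all genes. In *6KO2* against *E1E2 G9Gl* 13 were higher and 0 lower, with 7.19% and 9.12% of all genes.

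Of 34 genes of cell division 0 were higher and 1 lower, beside 10.8% and 9.73% of all genes. *Cdk4*, the kinase of the G1 phase, held 10444, 10582 and 10514 in *E1E2 G9Gl* and 5114, 5454 and 5101 in *6KO1* (log2 fold change -1.01, SE 0.07, adjusted p = 1.6e-11), which is at the threshold. *Cdk1* and *Cdk2* had fold changes of -0.85 and -0.89 (adjusted p = 1e-07 and 2.1e-13) and missed the 2-fold minimum. All 3 lie on chromosome 10, where 22.2% of tested genes were called lower. *Cdk6*, on chromosome 5, had a fold change of 0.11. *Cdk7* had one of -0.42 (adjusted p = 0.00017) and was not called. The median of the 34 genes was -0.17. *Rb1*, the retinoblastoma protein that Cdk4 phosphorylates, had a fold change of 0.88. Of 10 CDK inhibitors and pocket proteins *Cdkn1a* alone was called.

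Most interferon-stimulated genes were above WT in both lines, and some were higher in *6KO1*. Interferons are released when RNA or DNA sensors detect nucleic acids, and they switch on these genes through Stat and Irf factors. Of 43 tested, 9 were higher and 2 lower in *6KO1*, with a median of 0.33, where 10.8% and 9.73% of all genes were. Against WT 43 were higher in *6KO1*, where 20.6% of all genes were higher. In *E1E2 G9Gl* 39 were higher and 1 lower, with 16.8% and 8.41% of all genes, and without WT replicate 2 the counts were 43, 40 and 1. The chemokine gene *Ccl5* held 24.8, 22.0 and 25.9 in *E1E2 G9Gl* and 832, 793 and 953 in *6KO1* (log2 fold change 5.14, SE 0.37, adjusted p = 3.6e-11), while WT held 119.8 ± 17.2. *Cxcl10*, another chemokine, rose from 765, 854 and 877 to 5765, 6312 and 6221 (log2 fold change 2.87, SE 0.28, adjusted p = 4.4e-09). *Rsad2* (viperin) and *Oasl1*, antiviral effectors, were higher by 2.68 and 1.89, and *Ifit1*, *Ifit3*, *Ifit3b*, *Isg15* and *Cmpk2* were called higher too. *Gbp7*, a guanylate-binding protein, and *Psmb8*, an immunoproteasome subunit, were called lower, with log2 fold changes of -1.47 and -1.55. Among regulators, *Irf1*, *Irf5* and *Irf7* were higher (3 of 15), and *Irf5* rose from 56.1, 41.6 and 49.2 to 1084, 1078 and 1007 and *Irf7* from 841, 822 and 834 to 2328, 2354 and 2389. *Irf9*, the DNA-binding subunit of the interferon-activated complex, had a fold change of 0.51 (adjusted p = 0.0162) and was not called. Of 16 sensors, *Zbp1*, which binds Z-form nucleic acids, was higher (12.9, 19.7 and 12.95 in *E1E2 G9Gl* against 256, 245 and 294 in *6KO1*) and the single-stranded RNA receptor *Tlr7* lower (274, 272 and 271 against 102, 93.1 and 104). *Ddx58* (RIG-I), *Tlr3* and *Tlr4* had fold changes of 0.12, -0.76 and -0.44 and were not called. In *6KO2* most of the list was below its parent line: 2 of 43 were higher and 29 lower than in *E1E2 G9Gl*, with 7.19% and 9.12% of all genes. In *E1 S1S2* against *E1* the counts were 24 higher and 1 lower, with 4.31% and 3.75% of all genes.

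The promoters of some of these genes carry the sequence type that Irf factors bind, which is shown for 2 genes that were higher and 1 that was lower. The letters GAAANNGAAA were searched on both strands of the 300 bases from 250 before to 50 after each gene's start (RefSeq, GRCm38.p6), and the match is in capitals in the windows.
*Cxcl10*, chr5:92349043-92349139, minus strand: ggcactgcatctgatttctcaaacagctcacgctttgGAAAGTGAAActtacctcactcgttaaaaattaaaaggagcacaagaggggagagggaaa
*Rsad2*, chr12:26456513-26456622, minus strand: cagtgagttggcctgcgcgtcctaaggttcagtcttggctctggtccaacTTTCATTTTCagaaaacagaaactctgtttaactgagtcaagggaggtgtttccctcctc
*Gbp7*, chr3:142530233-142530342, plus strand: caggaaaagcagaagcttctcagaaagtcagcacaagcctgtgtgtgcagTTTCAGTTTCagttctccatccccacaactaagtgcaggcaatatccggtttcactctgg
A match was found in 6 of 8 promoters of the genes that were higher, 1 of 2 of those that were lower and 11 of 23 of the others in the list, and in 3.99% of the 27025 genes in the table. A match is a description of the letters and not of binding.

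Among genes of the fibroblast matrix more were lower than higher in *6KO1*. Of 38 tested, 17 were lower and 2 higher, with a median of -0.83, where 9.73% of all genes were called lower and 10.8% higher. *Col1a1* and *Col3a1*, chains of the fibrillar collagens, were lower in every *6KO1* library. *Col1a1* fell from 49959, 36900.5 and 39078 to 15608, 10745 and 11859.5 (log2 fold change -1.72, SE 0.15, adjusted p = 1.5e-09), and *Col3a1* from 48326, 49210.4 and 48322 to 11421, 11126 and 10919.7 (log2 fold change -2.12, SE 0.07, adjusted p = 1.9e-17). *Postn* (periostin) fell from 373 ± 21.5 to 23.8 ± 7.32, *Col6a1*, on chromosome 10, from 10761 ± 209.7 to 1537 ± 80.3, and *Fbln1* from 14.9 ± 5.15 to 1.24 ± 0.624. *Mmp3*, a matrix-degrading enzyme, was lower, with a log2 fold change of -3.42, and its relative *Mmp2* higher, with 1.06, a call lost without 1 of some libraries. *Col6a3* went against *Col6a1* and *Col6a2*. It held 18.5 ± 3.93 in *E1E2 G9Gl*, 318 ± 16.4 in *6KO1* and 358 ± 97.6 in WT. The summed level of the matrix list was 237072 to 256080 in the *6KO1* libraries, 488280 to 512766 in those of *E1E2 G9Gl* and 383677 to 449081 in WT. Of 11 fibroblast markers tested, 5 of which are in the matrix list too, 7 were lower and 1 (*Fap*) higher. Both lines still expressed vimentin (*Vim*, 56685 ± 1143 and 34629.6 ± 480.1) and *Col1a2* (38886 ± 1283 and 16821 ± 1103), but *Dcn* was at 2.07 ± 1.95 and 0.580 ± 1.01 against 36.2 ± 9.48 in WT, and *Lum* was at 0 in all 6 libraries and in WT. Thus not all defining markers of fibroblasts were present, in WT either.

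Markers of other cell types were read for the same libraries, and their part in the results was not tested. Called higher in *6KO1* were 3 of 6 endothelial markers (*Pecam1*, *Tek*, *Vwf*), 2 of 4 epithelial (*Krt8*, *Krt14*), 2 of 5 macrophage and blood (*Cd68*, *Cd14*), 1 of 3 skeletal muscle (*Myh3*) and 1 of 4 adipocyte markers (*Fabp4*, a call that several alternatives lost). Among those called lower were *Kdr*, *Krt19*, *Ptprc*, *Itgam*, *Lyz2* and *Lpl*. *Lpl* (lipoprotein lipase) fell from 1002, 1056 and 974 to 10.6, 13.9 and 18.6 in *6KO1*, and *Itgam*, an integrin of myeloid cells, from 506, 519 and 497 to 65.9, 62.7 and 57.7. The summed levels in *E1E2 G9Gl* and *6KO1* were 97.1 to 108 and 215 to 251 for endothelial, 2835 to 2901 and 1537 to 1664 for epithelial, 786 to 849.9 and 644 to 707 for macrophage and blood, 334 to 345 and 358 to 391.7 for muscle, 219.7 to 238 and 101 to 144 for glial and 1342 to 1393 and 276 to 322 for adipocyte markers. The macrophage marker *Adgre1*, the endothelial *Emcn* and the neural crest factor *Foxd3* were at 0 in all 6 libraries.

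Transcription factors of mesenchyme and body axis differed gene by gene. Of 28 mesenchymal factors 7 were lower and 1 (*Snai1*) higher, with a median of -0.06. *Twist1*, a master regulator of mesenchyme, held 330.1, 302 and 268 in *E1E2 G9Gl* and 21.1, 21.8 and 10.8 in *6KO1* (log2 fold change -4.04, SE 0.17, adjusted p = 2.2e-15), while WT held 337 ± 45.5. *Tbx5*, which patterns the forelimb, and *Gata6* fell by 4.21 and 3.45 on the log2 scale, to 8.34 ± 3.74 and 52.1 ± 4.56, and both were expressed in WT. *Alx4* held 32.9 ± 3.43 in *E1E2 G9Gl* and 0.290 ± 0.503 in *6KO1*. Of 29 Hox genes, 4 were lower (*Hoxa7*, *Hoxa11*, *Hoxa13*, *Hoxb13*) and 0 higher, where 9.73% of all genes were lower and 10.8% higher, and *Hoxb13* fell from 66.6 ± 2.21 to 1.20 ± 1.32. Of 29 Polycomb subunits 0 were higher and 3 lower, a share near the 9.73% of all genes. *Cbx2* and *Cbx7*, which read trimethylated H3K27, were among those lower, with log2 fold changes of -1.10 and -3.10.

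Imprinted genes, which are expressed from 1 parental allele, changed in both directions, 6 higher and 5 lower of 29, beside 10.8% and 9.73% of all genes. *Grb10*, an adaptor that restrains growth signals, held 3541, 3667 and 3491 in *E1E2 G9Gl* and 108, 104 and 105 in *6KO1* (log2 fold change -5.08, SE 0.06, adjusted p = 8.4e-25), while WT held 6956 ± 199.7. *Plagl1* fell to 3.34 ± 1.39 from 89.6 ± 4.69. *Dlk1*, a Notch ligand relative, held 397 ± 37.5 in WT and 367 ± 47.7 in *6KO1* but 1.51 ± 1.63 in *E1E2 G9Gl*, and *Peg12* showed the same order with 425 ± 21.0, 176 ± 11.7 and 10.1 ± 1.30. *Peg3* rose from 1.58 ± 1.39 to 95.3 ± 2.33. Of 47 germline genes listed, 14 passed the filter on low counts, and 7 of these were higher and 2 lower, beside the same 10.8% and 9.73%. Some, such as *Dppa2* and *Dppa4*, could pass the filter through lines in which they are high. The difference in shares is therefore not a result about the list. *Dppa2* and *Dppa4*, partner proteins of pluripotent cells and neighbours on chromosome 16, were at 0 in *E1E2 G9Gl* and WT and rose to 40.4, 39.2 and 28.4 for *Dppa2* and to 72.1, 92.3 and 102 for *Dppa4* in *6KO1*, at least 31.0-fold and 75.4-fold. *Tex101*, a protein of germ cells, held 186 ± 10.02 in *E1E2 G9Gl* and 3.28 ± 2.49 in *6KO1*, and the meiotic cohesin *Stag3* fell from 263 ± 15.7 to 36.5 ± 13.5.

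Genes of H3K9 methylation beyond the targeted ones are set beside the 10.8% higher and 9.73% lower of all genes. Of 24 readers and cofactors *Atf7ip2*, a relative of the Eset1 partner Atf7ip, alone was called. It had 1 count in the *E1E2 G9Gl* libraries together, 107, 114 and 116 normalised counts in *6KO1* and 2.26 ± 1.33 in WT. Of 11 demethylases *Kdm7a* alone was called, with 137, 123 and 144 in *E1E2 G9Gl* against 588, 584 and 654 in *6KO1*. *Pik3r5*, a regulatory subunit of phosphoinositide 3-kinase, was the 1 called gene of a list of 9 for apoptosis and MAP kinase signalling (log2 fold change 1.65, SE 0.29, adjusted p = 3.2e-05), and *Mapk10* and *Mapk11* had fold changes of 0.22 and -0.55. Of a list of 9 genes that the study names for H3K9 methylation of their promoters in WT, 4 were tested. *Treml4*, named for dimethylation, rose from 0 to 14.9, 12.2 and 11.7. *Zfp936*, named for trimethylation, rose from 2.16, 4.63 and 5.18 to 311, 326 and 349. *Bbs9* and *Cacna1i*, named for monomethylation, had fold changes of 0.32 and 0.87 and were not called.

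**Figure D5:**
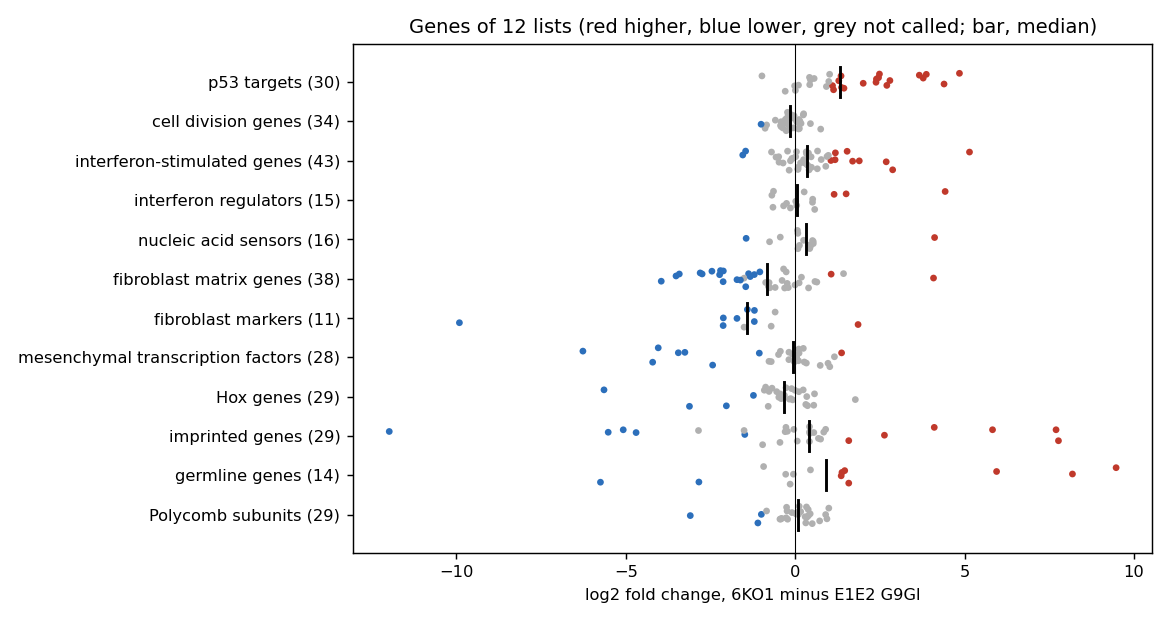
Log2 fold change of *6KO1* relative to *E1E2 G9Gl* for the tested genes of 12 lists, with the number of genes in parentheses. Points are genes, red where called higher and blue where called lower, and the bar is the median of the list. The p53 targets lie to the right and fibroblast matrix genes and markers to the left, while imprinted genes spread to both sides.

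Genes of chromosome 10 were lower in *6KO1* as a group. Of 785 tested on it 174 were lower (22.2%) and 46 higher (5.86%), and the median over its 541 genes with a mean level of at least 100 was -0.65. The median of chromosome 10 relative to WT was -0.66 in *6KO1* and -0.03 in *E1E2 G9Gl*. On the other autosomes and X the median between the lines lay from -0.36 on chromosome 9 to 0.30 on chromosome 7. *Cdk4*, *Cdk1*, *Cdk2*, *Col6a1*, *Plagl1*, *Lyz2* and *Soga3*, all lower in *6KO1*, are among the genes of chromosome 10 named above, and the list is not complete. The part of the chromosome in the results for these genes was not tested. With chromosome 10 left out 1951 genes were higher and 1633 lower.

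Other lines with *Suv39h* mutations are given side by side. *6KO2* relative to *E1E2 G9Gl* shares the *E1E2 G9Gl* libraries with the main comparison, and there 1335 genes were higher (7.19%) and 1693 lower (9.12%), with 22 repeat elements higher (1.82%) and 202 lower (16.7%). *E1 S1S2* relative to *E1* shares no library with it, but *6KO1* descends from the *E1 S1S2* clone. In that pair 801 genes were higher (4.31%) and 696 lower (3.75%), with 18 elements higher (1.49%) and 14 lower (1.16%). Of the genes higher in *6KO1* than in *E1E2 G9Gl*, 300 were also higher in *E1 S1S2* than in *E1*, which is 15.02% of the former and 37.5% of the latter, and 97 were lower there. Of the genes lower in *6KO1*, 263 were also lower in *E1 S1S2*, 14.6% and 37.8%, and 127 were higher there. Among elements, 4 of 46 higher ones were also higher in *E1 S1S2*, namely GSAT_MM, LTR109A2, RLTR46B and UCON25. Of the 120 lower elements 2 were also lower in *E1 S1S2* and 6 were higher there. *Cdkn1a* differed by 3.78 in *6KO1* against *E1E2 G9Gl*, 2.13 in *6KO2* against *E1E2 G9Gl* and 2.06 in *E1 S1S2* against *E1*. The same 3 values were 4.39, 2.52 and 1.83 for *Trp53inp1*, 2.68, 0.16 and 1.82 for *Rsad2*, and -4.60, -4.19 and 1.73 for RLTR6-int. For RLTR6-int the fold change in the *E1 S1S2* and *E1* pair had the opposite sign, and the difference between the comparisons was not tested.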

How the data were processed

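RNA was measured in 24 libraries of 8 MEF lines, 3 per line, by sequencing of total RNA. The authors trimmed reads with cutadapt 1.8.1, aligned them to GRCm38 with STAR 2.5.2b and counted genes and repeat elements with TEtranscripts, and the deposited values are raw counts per gene or element, not normalised. How the counting used the strand is not given in the sources used here, so genes that overlap on opposite strands (among those named *Suv39h1*, *Suv39h2*, *Cdk4*, *Irf5*, *Cxcl10*, *Hoxa7* and *Hoxa11*) may share reads. The table held 47937 gene entries and 1445 repeat elements, and 1 malformed entry, at most 0.00271% of a library, was left out.

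Counts were tested with edgeR 4.0.16 (R 4.3.3, limma 3.58.1; quasi-likelihood, 1 coefficient per line, all 24 libraries, filterByExpr, TMM factors of the genes applied to genes and repeats), and a call needed a 2-fold difference (log2 of 1) with an adjusted p not above 0.01. p-values measure the spread between the libraries of single clones. Class totals were compared by exact permutation (scipy 1.17.1). In simulated data, 98.5% of genes changed by a log2 of 1.5, 2 or 3 were recovered at each size among 18565, with 0 other calls. The changed genes were drawn from those above a minimum level, and all others had no difference. Changes near the threshold and genes at low levels were thus not covered. Counting intervals and floors (3 counts over the line) cover counting error only. Alternatives were DESeq2 1.42.0, RLE factors, other filters and scalings of repeats, a replicate block, the 6 libraries alone and single libraries left out. WT replicate 2, chromosome 10 and RLTR6-int were left out as alternatives chosen after seeing the data.

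Genes named were the 6 methyltransferases, the 15 largest changes per direction among called genes without overlap between the lines, with a level of at least 100 in the higher line and a symbol that is not a predicted model, up to 4 called genes per direction in each gene list, and genes that the study discusses. Elements named were all satellites, the 12 largest called changes per direction at that level and the 3 most abundant of each group. Further names (the chromosome 4 region, runs of neighbours and other list members) were chosen after their values were seen. The lines, lists and tests were chosen with earlier results of these data known. Some results are not reported here. Promoters came from RefSeq on GRCm38.p6. Figures were drawn with matplotlib 3.10.9 in python 3.11.15.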

Additional observations from a re-analysis of the deposited data

How the results depend on the processing

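The counts of genes and elements moved by over 1.5 times under few settings. With a mean normalised count above 100, 563 genes were higher and 727 lower, and 26 elements were higher and 52 lower, since fewer features were tested. With no fold change minimum there were 4895 and 4780 genes and 82 and 341 elements. Repeat-only factors left 68 elements lower. DESeq2 gave 1844 and 1801 genes, and leaving out single libraries of either line 1917 to 2008 and 1783 to 1875. The replicate block gave 1980 and 1798 genes and 46 and 121 elements, and same-numbered libraries of the lines correlated in their deviations at 0.217, 0.114 and -0.0846, so the numbers were not taken to pair them.

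Family totals turned for ERV1 without RLTR6-int (0.48) and for ERVL with repeat-only factors (0.045). The satellite total fell below the 2-fold minimum without GSAT_MM (0.89). Class ratios with repeat-only factors were 1.12 for LTR, 0.887 for LINE, 1.13 for SINE, 0.996 for DNA and 4.39 for satellite elements, and the LTR ratio was 1.33 without RLTR6-int. The same factors turned the log2 fold change of MERVL_2A-int (0.22), ID_B1 (0.15), B3 (0.14), MuLV-int (0.13), MMERVK10D3_I-int (0.13), MERVL-int (0.11), MT2B (0.10), MTC (0.028), URR1B (0.021), MTD (0.0085) and RCHARR1 (0.00024), none of which was called. ETnERV2-int, not called either, was at -0.0080 with RLE factors and with DESeq2 and from -0.050 to 0.043 with single libraries left out, and ZP3AR ran from -0.047 to 0.13. The cause of these turns was not tested.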
